A study of Mus musculus with 2 samples.

Results

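The cells described here are the epithelial-marker cells in the lungs of mice bearing 4T1 tumors, in a comparison of intravenous nanoparticles with saline. They were selected on measured values. A cell was kept if it had 500 to 5000 detected genes, under 7.5% mitochondrial UMIs (unique molecular identifiers, 1 per captured transcript), under 5% of UMIs from the neutrophil genes S100a8 and S100a9, at least 3 UMIs of the epithelial genes Epcam, Cdh1, Krt8 and Krt18 with at least 2 of these 4 genes detected, and no UMI of Cdh5, Csf1r or Cd79a, which mark endothelial, monocyte and B cells. The rule kept 99 cells, 46 from the saline library and 53 from the NP library, out of 8303 cells inside the gene, mitochondrial and S100 limits and 16995 inside the gene and mitochondrial limits. These 4 epithelial genes, and every class built from the same cells, are therefore given as descriptions.

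Both groups were lungs of female BALB/cJ mice aged 12 weeks, inoculated with 100000 cells of 4T1, a mouse mammary carcinoma line, and taken at day 14. By the methods of the study, the cells were the reporter derivative 4T1-luc2-tdTomato. The NP group received cargo-free poly(lactide-co-glycolide) nanoparticles and the control group saline, every 3 days. Each group was 1 library pooled from 4 mice according to the labels (the methods of the study give another number), so single mice cannot be told apart, no difference between the groups can be tested, and every interval below covers counting error only. The saline library held 91168129 UMIs in all and the NP library 90081747. No kept barcode occurred in both libraries.

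The lung epithelium lines the airways and the alveoli. Alveolar type 2 (AT2) cells make and recycle surfactant and can give rise to alveolar type 1 (AT1) cells, the thin cells across which gas exchange takes place. Club cells secrete secretoglobins into the small airways and metabolise inhaled chemicals, ciliated cells move mucus, and rare neuroendocrine cells release peptides. Mesothelial cells form the outer surface of the lung, share the simple keratins Krt8 and Krt18 with epithelium, and are not part of the airway or alveolar lining.

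The kept cells were deeper than the libraries they came from. Their median depth was 15380.5 UMIs in saline (lowest 2238, highest 23956) and 17847 in NP (lowest 865, highest 28354), beside medians of 6100 and 6135 over all cells inside the limits. The median number of detected genes was 3664.5 in saline and 3751 in NP. The 4 epithelial genes summed to a median of 9 UMIs per saline cell and 12 per NP cell, with a highest sum of 56 and 47. Just inside the limit, 3 saline and 5 NP cells held exactly 3 UMIs, and just outside it 7 saline and 4 NP cells held 2 UMIs. The conditions on Cdh5, Csf1r and Cd79a had removed 37 saline and 61 NP cells, of which 24 and 42 carried an alveolar macrophage profile.

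The label of lung epithelium was checked against marker panels, and the data went against it for part of the cells. Each cell was given the panel with its highest score, the mean of ln(1 + UMIs per 10000 UMIs) over the panel's genes, when that score was at least 1 and at least 3 of its markers were detected. A cell that scored highest on the general leukocyte panel was called alveolar macrophage-like when the macrophage panel also reached 1. Lung epithelial classes (AT2-, AT1-, club-, ciliated- and neuroendocrine-like) accounted for 26 of 46 cells in saline, or 56.5% with a 95% Clopper-Pearson interval of 41.1 to 71.1, and for 43 of 53 in NP, or 81.1% (68.0 to 90.6). Mesothelial-like cells were 13 of the saline and 2 of the NP cells. Cells with leukocyte markers were 6 of the saline and 8 of the NP cells, and 1 saline cell reached no panel. No panel was for mammary or tumor cells, so a 4T1 cell could not be named as such. A separate list of 6 mammary genes held 67 UMIs in saline and 105 in NP over all kept cells, with Elf5 the most abundant. Of these UMIs, 35 and 87 lay in AT2-like cells. The classes stood apart: the best panel led the next one by under 0.5 in 3 saline and 6 NP cells, all of them alveolar macrophage-like, in which the general leukocyte panel scored about as high. The top score lay between 1 and 1.5 in 1 saline cell.

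**Figure D1:**
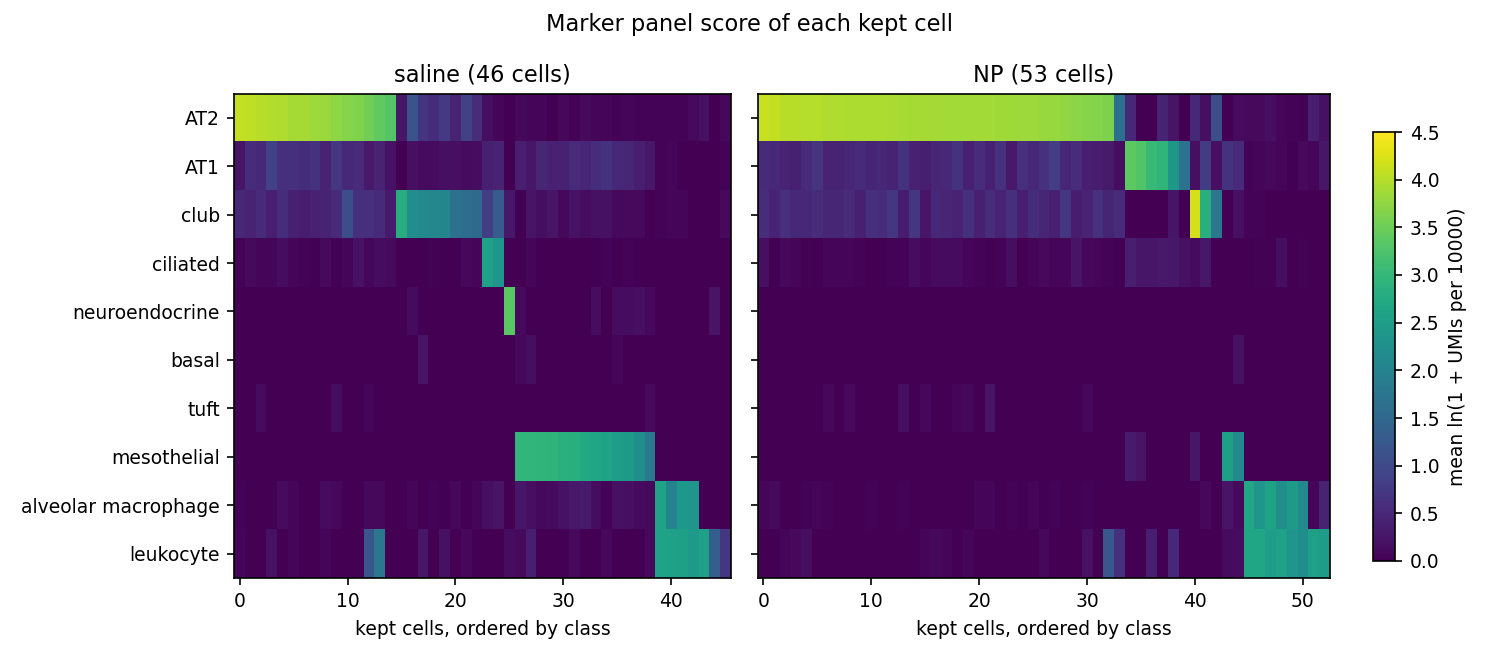
Marker panel scores of the 46 saline and 53 NP cells. Each column is a cell, ordered by class, each row is a panel, and colour gives the mean ln(1 + UMIs per 10000) over the panel's genes; most cells are bright in 1 row and the alveolar macrophage-like cells in 2, and the mesothelial block is 13 columns wide in saline and 2 in NP.

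AT2-like cells were the most frequent class in both libraries and made up a larger share of the kept NP cells. In saline, 15 of 46 cells (32.6%, 19.5 to 48.0) fell in this class, against 34 of 53 (64.2%, 49.8 to 76.9) in NP, and the 2 intervals did not overlap. With a mitochondrial limit of 5% the class held 12 of 36 and 12 of 25 cells, the difference fell from 31.5 to 14.7 percentage points, and its interval (-12.2 to 40.1) included 0, as it also did within the 5 lung epithelial classes (21.4, -2.87 to 44.8). Sftpc, which encodes surfactant protein C, alone took a median of 19.0% of a saline AT2-like cell's UMIs (lowest 11.5%, highest 30.8%) and 20.7% of an NP cell's (lowest 0.767%, highest 28.0%). All 15 saline cells lay above 10%, and in NP a single cell, with 22 Sftpc UMIs among 2870, lay far below the others. Of the 11 AT2 markers, all were detected, and the saline cells held 10 or 11 of them each and the NP cells 7 to 11. Genes outside the panel that led this class were Lyz1, which encodes a lysozyme, and Hc, which encodes complement component C5.

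Promoters of 3 genes that set this class apart, and of Ager as the AT1 gene, are shown because surfactant genes are known targets of NKX2-1, the homeodomain factor of the lung epithelium, whose sites often hold the letters CTCAAG. Nkx2-1 itself was detected in 14 of 15 saline and 32 of 34 NP AT2-like cells and in no mesothelial- or macrophage-like cell. It was found in 2 of 6 AT1-like cells, which were shallower (median 2831 UMIs), and in 1 of 8 saline and 0 of 3 NP club-like cells. It was also found in 1 of 2 ciliated-like cells and in the 1 neuroendocrine-like cell. The sequences are from RefSeq on GRCm38.p6, plus strand, 300 bases around the start of each gene, with matches to CTCAAG on either strand (CTCAAG or CTTGAG) in capitals. They lie at chr6:72304360-72304659 (Sftpb), chr14:41131538-41131837 (Sftpa1), chr5:90794284-90794583 (Cxcl15) and chr17:34597600-34597899 (Ager).
Sftpb: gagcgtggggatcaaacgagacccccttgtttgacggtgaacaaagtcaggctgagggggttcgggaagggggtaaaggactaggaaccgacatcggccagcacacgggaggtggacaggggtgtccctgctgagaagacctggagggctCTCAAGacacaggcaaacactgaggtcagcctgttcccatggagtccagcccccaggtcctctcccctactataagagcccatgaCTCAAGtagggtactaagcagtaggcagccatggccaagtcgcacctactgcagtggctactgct
Sftpa1: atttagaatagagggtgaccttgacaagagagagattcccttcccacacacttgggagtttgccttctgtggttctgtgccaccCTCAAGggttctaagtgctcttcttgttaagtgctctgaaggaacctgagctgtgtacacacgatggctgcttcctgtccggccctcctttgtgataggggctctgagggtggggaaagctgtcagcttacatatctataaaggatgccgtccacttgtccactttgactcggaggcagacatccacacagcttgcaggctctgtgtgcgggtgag
Cxcl15: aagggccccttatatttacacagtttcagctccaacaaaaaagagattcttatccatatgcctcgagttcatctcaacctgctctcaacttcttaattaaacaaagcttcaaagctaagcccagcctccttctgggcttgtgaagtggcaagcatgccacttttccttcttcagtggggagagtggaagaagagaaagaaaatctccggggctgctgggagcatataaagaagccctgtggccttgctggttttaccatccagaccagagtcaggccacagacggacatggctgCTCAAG
Ager: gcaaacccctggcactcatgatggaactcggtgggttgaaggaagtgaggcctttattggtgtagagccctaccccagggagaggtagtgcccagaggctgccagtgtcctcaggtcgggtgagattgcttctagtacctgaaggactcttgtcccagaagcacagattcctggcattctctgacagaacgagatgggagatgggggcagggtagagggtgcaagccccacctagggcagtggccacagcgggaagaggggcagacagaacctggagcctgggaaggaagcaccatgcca
The Sftpb window held the letters at positions 151 and 236 counted from its 5′ end, the Sftpa1 window at position 85 and the Cxcl15 window at position 295, while the Ager window held none. Of all 32851 promoters of this length, 5224, or 15.9%, held at least 1 match. A match describes the letters only.

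AT1-like cells were kept from the NP library alone at these limits, and they were shallow. In NP, 6 of 53 cells (11.3%, 4.27 to 23.03) fell in this class, and in saline 0 of 46, which allows a share of up to 6.52% when the limit is taken at 3 counts, and 7.71% by the Clopper-Pearson interval. They held 865 to 4850 UMIs each, against medians of 17651 and 19239 in AT2-like cells. Ager, the receptor that marks the AT1 surface, stood at 265 UMIs per 10000 over the class and at 44 to 162 UMIs in 5 of the cells, with 7 in the other. Hopx, a homeodomain-only cofactor of AT1 cells, stood at 109 per 10000. AT2-like cells also held Ager in every cell, at 13.2 per 10000 in saline and 9.97 in NP, with Hopx at 0.523 and 0.182. In both libraries as a whole, with no condition on the epithelial genes, Ager reached 1% of UMIs in 1 of 3113 saline and 10 of 5190 NP cells. The rule itself left out AT1-like cells through Cdh5, Csf1r or Cd79a in 1 saline and 8 NP cells, and its mitochondrial limit removed 2 AT1-like cells in saline and 0 in NP that met every other condition. At the limits used, the difference in the AT1-like share was 11.3 percentage points (0.876 to 23.03), an interval that excluded 0. With a mitochondrial limit of 15%, 1 of 48 saline and 6 of 59 NP cells were AT1-like, a difference of 8.09 percentage points (-2.91 to 18.9), and this interval included 0.

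Club-like cells were fewer among the kept NP cells. In saline 8 of 46 (17.4%, 7.82 to 31.4) fell in this class, in NP 3 of 53 (5.66%, 1.18 to 15.7), and these intervals overlapped. Scgb1a1, the club cell secretoglobin, took a median of 72.4% of the UMIs of a saline club-like cell (lowest 25.6%, highest 76.3%). The 3 NP club-like cells held 5.79%, 10.4% and 79.6%. A saline club-like cell held 619 to 1402 detected genes. Beside Scgb1a1 the class was led by Bpifa1, Scgb3a1 and Scgb3a2, secreted proteins of the airway, and by Cyp2f2, a cytochrome P450 of club cells. A single NP cell held 925 of the 979 NP UMIs of Bpifa1 and 1846 of the 1904 of Scgb3a1 over all kept cells. Mitochondrial UMIs were a median of 0.0904% in saline club-like cells (lowest 0.00485%, highest 1.97%) and 2.06% in NP ones, beside 4.74% in saline AT2-like cells, and their part in the club-like share was not tested. Cdh1 was at 0 in every club-like cell of both libraries, and these cells entered through Krt8, Krt18 and Epcam.

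The epithelial rule caught only some Scgb1a1-rich cells. Without it, Scgb1a1 reached 1% of UMIs in 26 of 3113 saline cells inside the limits, 0.835% (0.546 to 1.22), and in 5 of 5190 NP cells, 0.0963% (0.0313 to 0.225). Over all cells inside the gene and mitochondrial limits alone the counts were 29 of 8662 and 6 of 8333, or 0.335% and 0.0720%. The intervals did not overlap with either denominator. Of the 17 such saline cells outside the kept set, 13 failed the condition on the 4 epithelial genes and 7 held Cdh5, Csf1r or Cd79a UMIs. For Sftpc the same count gave 24 saline cells, 0.771% (0.495 to 1.14), and 41 NP cells, 0.790% (0.567 to 1.07), which could not be told apart at this depth. Without the S100 limit it gave 27 and 43 cells, 0.312% (0.206 to 0.453) and 0.516% (0.374 to 0.694). These intervals overlapped too, but no interval of the difference was made.

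Free RNA showed the same 2 genes on opposite sides. In barcodes with under 50 UMIs, which hold RNA free of cells, Scgb1a1 was 0.443% of UMIs in saline and 0.0352% in NP, 12.6-fold more in saline. Sftpc was 0.146% in saline and 0.541% in NP, 3.72-fold more in NP. After cells were thinned to 1000 UMIs, which left out 58 of the other saline and 161 of the other NP cells, at least 1 Scgb1a1 UMI was found in 8.67% of the other saline cells and 1.59% of the other NP cells, and at least 1 Sftpc UMI in 3.66% and 8.64% (median depths before thinning 6010 and 6083 UMIs). Shares at that level were therefore read as background. In the kept cells, thinned in the same way, Sftpc was detected in 37.0% in saline and 69.2% in NP (unthinned 45.7% and 79.2%), Scgb1a1 in 26.1% and 34.6% (unthinned 76.1% and 64.2%), and Ager in 23.9% and 51.9% (unthinned 37.0% and 79.2%). Thinning left out no saline and 1 NP kept cell.

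**Figure D2:**
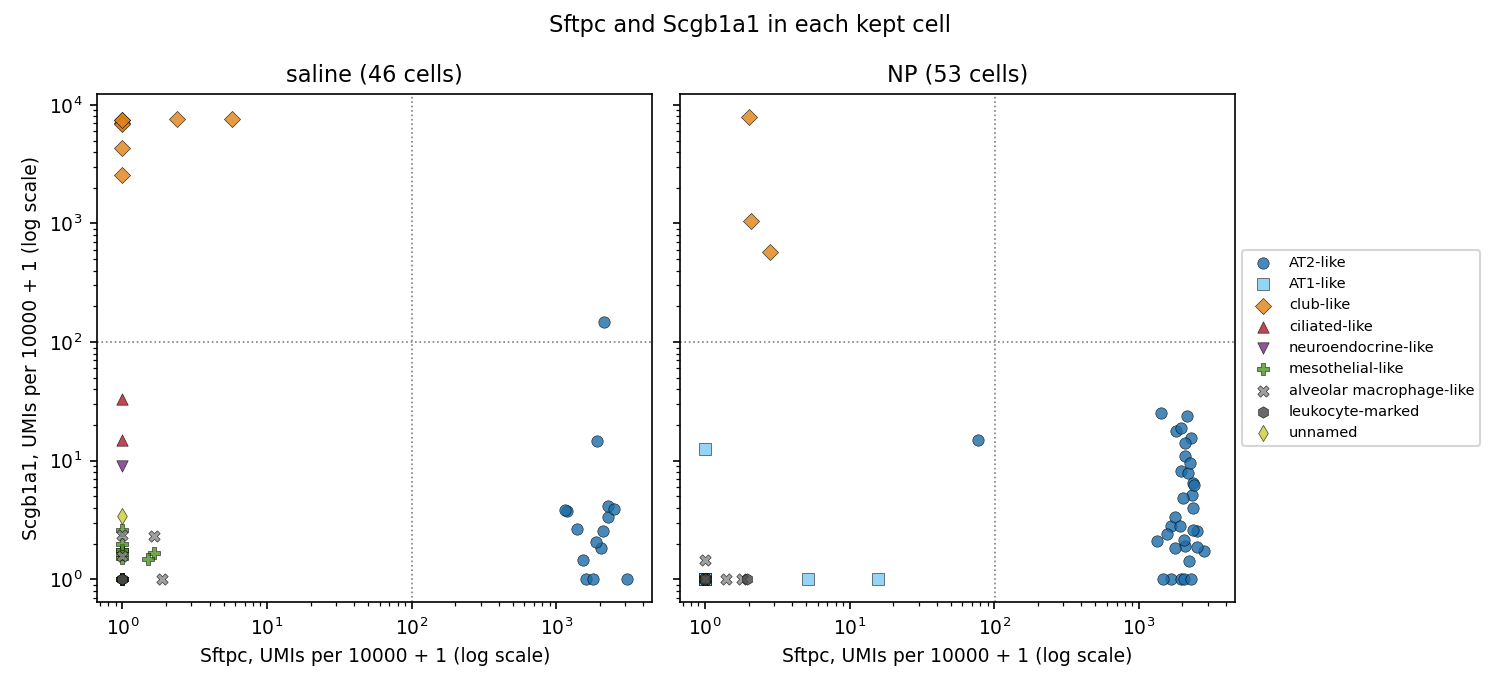
Sftpc (x axis) and Scgb1a1 (y axis) in each kept cell, as UMIs per 10000 plus 1 on log scales, with 46 saline cells on the left and 53 NP cells on the right. Symbols give the class and dotted lines mark 1% of UMIs; AT2-like cells lie at the right edge of both panels, and 8 saline but 3 NP club-like cells lie at the upper left.

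Ciliated-like and neuroendocrine-like cells were found in saline alone, in numbers too small to compare. The 2 ciliated-like cells held all 11 ciliated markers and were led in their panel by Tmem212, Tppp3 and Dynlrb2, genes of multiciliated cells. They held 9 and 12 Epcam UMIs. In the whole libraries, at least 3 ciliated markers were detected in 7 saline and 8 NP cells inside the limits. The 1 neuroendocrine-like cell held all 5 of its markers, with Calca, the gene for calcitonin gene-related peptide, at 148 UMIs per 10000. No cell was assigned to the basal or tuft panel, and 0 of 46 and 0 of 53 cells allow shares of up to 6.52% and 5.66% at 3 counts, or 7.71% and 6.72% by the Clopper-Pearson interval.

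Mesothelial-like cells made up much of the kept saline cells. Among 46 in saline there were 13 (28.3%, 15.99 to 43.5), and among 53 in NP there were 2 (3.77%, 0.460 to 12.98), and the intervals did not overlap. All 15 held every one of the 7 mesothelial markers. Msln, the surface protein mesothelin, stood at 53.0 UMIs per 10000 in saline and 39.5 in NP, and Upk3b, a uroplakin, at 35.8 and 32.6. Dcn, the matrix proteoglycan decorin, was their leading gene against the other kept cells, with 1198 UMIs here and 0 elsewhere. Cdh1 was at 0 in all of them and the median of Epcam was 0, so Krt8 (median 4 UMIs in saline) and Krt18 (median 4) brought them in. With no epithelial condition, at least 3 mesothelial markers were detected in 35 of 3113 cells in saline (1.12%, 0.784 to 1.56) and in 9 of 5190 in NP (0.173%, 0.0793 to 0.329).

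Alveolar macrophage-like cells passed the rule through Epcam and Cdh1. There were 4 in saline and 6 in NP, and in all 10 both Krt8 and Krt18 were at 0. They held 2 to 6 Epcam UMIs in saline and 1 to 9 in NP, with Ptprc, the pan-leukocyte gene, at 5 to 11 and 8 to 19 UMIs. Their leading genes included Ear2, Ear1, Chil3 and Mrc1, products of resident lung macrophages. In the other 2 saline and 2 NP leukocyte-marked cells the leading genes included the chemokines Ccl4 and Ccl3, and Tyrobp, a signalling adaptor, was the only panel gene among the leading 10, so these cells were left without a type.

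**Figure D3:**
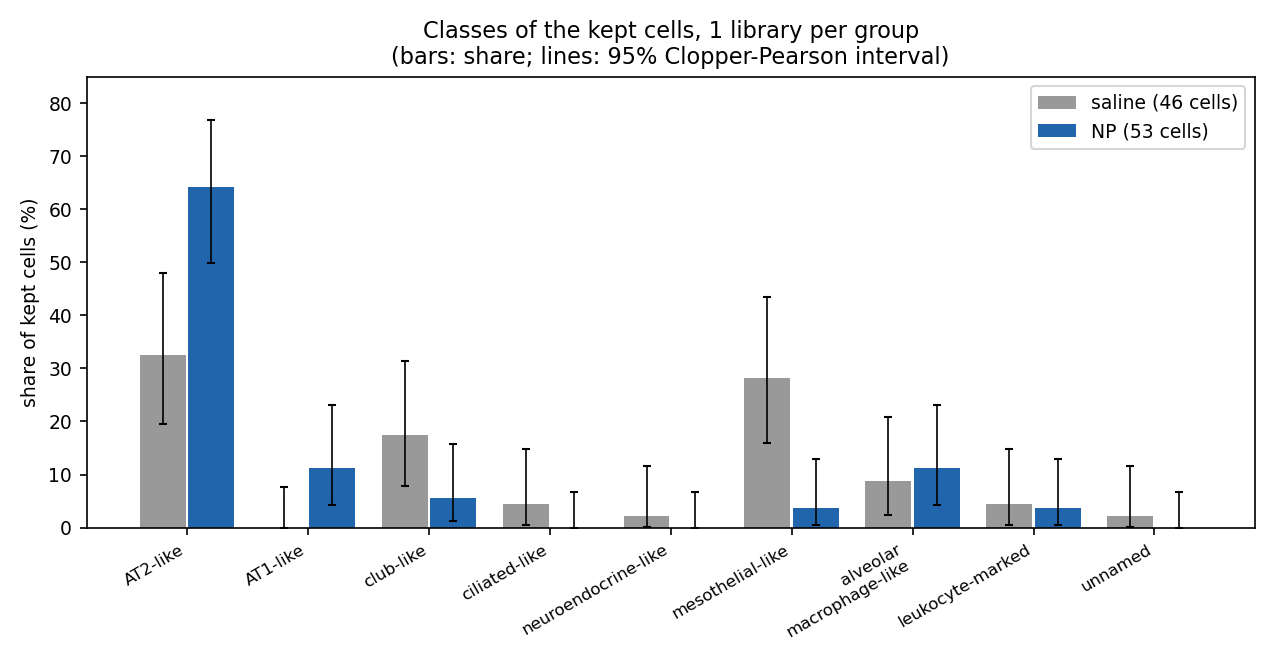
Share of the kept cells in each class, in percent, for saline (46 cells) and NP (53 cells), 1 library each. Bars give the share and lines the 95% Clopper-Pearson interval, which covers counting error only; the intervals of AT2-like and mesothelial-like cells do not overlap between the groups, and those of the other classes do.

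As a share of the library, the kept cells ran in opposite directions with the 2 denominators. They were 1.48% (1.08 to 1.97) of saline and 1.02% (0.766 to 1.33) of NP cells inside all limits, and 0.531% (0.389 to 0.708) and 0.636% (0.477 to 0.831) of cells without the S100 limit. That limit removed 64.1% of saline and 37.7% of NP cells. The 5 lung epithelial classes alone were 0.835% (0.546 to 1.22) and 0.829% (0.600 to 1.11) inside all limits. Without the S100 limit they were 0.300% (0.196 to 0.439) and 0.516% (0.374 to 0.694), a ratio of 1.72. The kept AT2-like cells were 0.482% (0.270 to 0.793) and 0.655% (0.454 to 0.914) inside all limits, a ratio of 1.36. Without the S100 limit the kept AT2-like cells were 0.173% (0.0970 to 0.285) and 0.408% (0.283 to 0.570), a ratio of 2.36. The intervals of each of these pairs overlapped, those of the last pair only between 0.283 and 0.285%. Such overlap does not place a difference within counting error. No interval of the difference was made for the lung epithelial and AT2-like pairs. For the kept cells inside all limits the difference of -0.456 percentage points (-1.01 to 0.0463) became -0.817 (-1.40 to -0.300) with a mitochondrial limit of 5% and -0.603 (-1.22 to -0.0443) with S100a8 and S100a9 under 1%, and these intervals excluded 0. Within those 5 classes AT2-like cells took 57.7% (36.9 to 76.6) in saline and 79.1% (64.0 to 90.0) in NP, and club-like cells 30.8% (14.3 to 51.8) and 6.98% (1.46 to 19.1). Fewer cells of a class, fewer cells released by the digestion and fewer cells passing the limits cannot be told apart in these libraries.

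The genes furthest apart over all kept cells came mostly from mesothelial-like cells on the saline side and from AT2-like cells on the NP side. Of 7452 genes with at least 20 UMIs over both libraries, 445 (5.97%) were over 2-fold higher in NP and 736 (9.88%) over 2-fold lower, on pooled UMIs with counts under 3 set to 3. The 10 genes that the naming rule placed lowest in NP were Cpe, Nkain4, Mfap5, Prss23, Adamts5, Pkhd1l1, Sulf1, Igfbp5, Cyp2s1 and Sbsn. Mesothelial-like cells held 76.7% to 100% of the saline UMIs of each of them, and AT2-like cells 0. Igfbp5, a binding protein of insulin-like growth factors, stood at 33.0 UMIs per 10000 in saline and 1.64 in NP. The highest included Nfil3, Nrn1, Lrg1, Ang, Paqr8, Acoxl, Prss8, Slc22a23 and Fabp5. AT2-like cells held 93.2% to 100% of the NP UMIs of each of these genes except Nfil3 (20%).

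The comparison of NP with saline was therefore made within AT2-like cells, the only class with more than 10 cells in each library. The 15 saline cells held 248417 UMIs and the 34 NP cells 658654, with median depths of 17651 and 19239 UMIs and 3680 and 3874.5 detected genes. Of 4746 genes with at least 20 UMIs, 190 (4.00%) were over 2-fold higher in NP and 226 (4.76%) over 2-fold lower, and the median log2 ratio was -0.07. The balance turned with other choices, to 228 higher and 200 lower after centring on the median gene, 235 and 168 without Ptprc-positive cells, 223 and 174 with S100a8 and S100a9 under 1%, and 211 and 185 without the cells over 10 leukocyte marker UMIs. It was near even, at 263 and 259, with equal weight per cell and, at 208 and 205, without the cell with the most UMIs, and stood at 141 and 244 with 0.5 added to each count, so neither direction was read as the more frequent. With 15 saline cells, the class was below the 20 cells asked for by the naming rule, so genes named here by the size of their ratio were chosen after their values were seen.

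The surfactant machinery was at nearly the same level in both libraries. Of the 26 genes of the surfactant and lamellar body list, 25 were measured, with a median log2 ratio of 0.12, 2 over 2-fold higher and 0 over 2-fold lower. Sftpc stood at 1871 UMIs per 10000 in saline and 2037 in NP (log2 ratio 0.12, 95% interval 0.11 to 0.14). Sftpa1, a collectin of surfactant, stood at 274 and 271 (log2 ratio -0.02, -0.06 to 0.02). Sftpb, needed for the surfactant film, stood at 103 in both (log2 ratio 0.01, -0.06 to 0.07). Over single cells, Sftpb ran from 43.0 through a median of 106 to 140 in saline and from 10.5 through 105 to 162 in NP, so the groups overlapped throughout. Abca3, the lipid pump of lamellar bodies, Lamp3, Napsa and Slc34a2 also had log2 ratios between 0.01 and 0.12. Sftpd, the other collectin, stood at 60.0 and 46.9 (log2 ratio -0.35, -0.44 to -0.26), and Ctsh, a cathepsin that processes surfactant protein B, at 13.5 and 9.99 (log2 ratio -0.44, -0.63 to -0.24). With a mitochondrial limit of 5% these log2 ratios were 0.04 (-0.08 to 0.16) for Sftpd and 0.13 (-0.12 to 0.38) for Ctsh, so no direction was read for either.

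Of the 25 measured genes of the list, 19 had log2 ratios above 0 and 6 below, and those named here were chosen after their values were seen. The 2 over 2-fold higher were few in UMIs: Lpin1, a phosphatidate phosphatase, with 2 and 19 (log2 ratio 1.26, -0.21 to 4.99), and Acoxl, related to the acyl-CoA oxidases, with 7 and 44 (log2 ratio 1.25, 0.08 to 2.64). Fabp5, a fatty acid binding protein, had 218 UMIs in saline and 1129 in NP, or 8.78 and 17.1 per 10000 (log2 ratio 0.97, 0.76 to 1.18). Over single cells it ran from 0 through a median of 8.78 to 59.2 in saline and from 3.89 through 14.6 to 57.5 in NP, and the ranges overlapped. Acly, which makes cytosolic acetyl-CoA, had a log2 ratio of 0.72 (0.22 to 1.26), Elovl1 0.43 (0.15 to 0.71) and Chka, a choline kinase, 0.55 (0.11 to 1.01), which became 1.18 (0.61 to 1.79) without the cells over 10 leukocyte marker UMIs. Scd1, a fatty acid desaturase, had a log2 ratio of 0.37 (0.23 to 0.52), but 1 cell held 36.6% of its NP UMIs, and with a mitochondrial limit of 5% the log2 ratio was -0.49 (-0.71 to -0.27). Fasn, the fatty acid synthase, differed by less than its counting error (log2 ratio 0.09, -0.18 to 0.37).

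**Figure D4:**
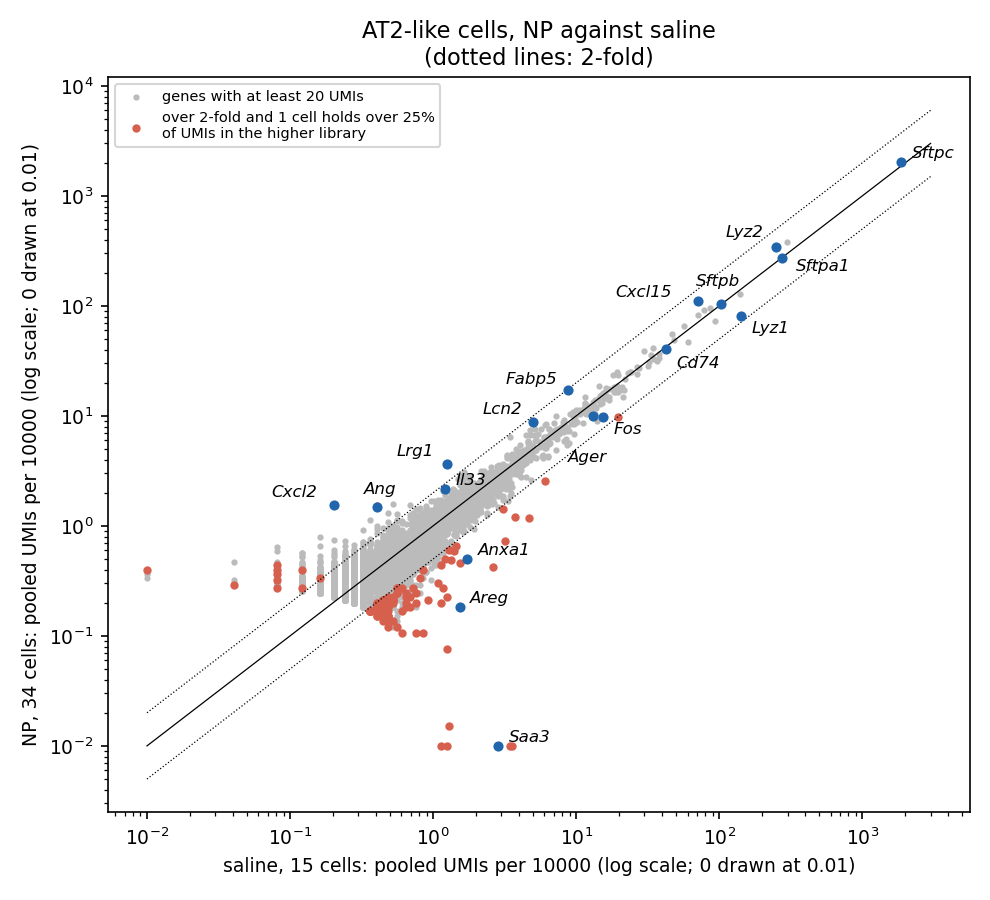
Pooled level of each of 4746 genes in AT2-like cells, in UMIs per 10000 on log scales, for saline (15 cells, x axis) and NP (34 cells, y axis). The solid line marks equal levels and dotted lines a 2-fold difference; red points are genes over 2-fold apart in which 1 cell holds over 25% of the UMIs of the higher library, which also holds for the blue labelled points Cxcl2, Saa3 and Areg, and the surfactant genes lie along the solid line.

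Interferon response genes were scarcely detected in AT2-like cells of either group. The IFN-gamma response list has 30 genes, of which 4 reached 20 UMIs, with a median log2 ratio of -0.32 and 1 over 2-fold lower (Wars, a tRNA synthetase, with 12 and 13 UMIs). Summed over the list, AT2-like cells held 2.94 UMIs per 10000 in saline and 2.40 in NP (log2 ratio -0.29, -0.70 to 0.13). A saline cell held from 0 through a median of 2.45 to 5.78 per 10000 and an NP cell from 0 through 2.17 to 6.21, so the groups overlapped throughout. Gbp2, a guanylate-binding protein, had 1 and 3 UMIs, and Cxcl9, Cd274, Igtp, Tgtp2 and Ubd had none. In the cells inside the limits that the rule did not keep, the same list stood at 14.4 UMIs per 10000 in saline and 27.2 in NP (log2 ratio 0.92, 0.90 to 0.94), from 3067 and 5137 cells. The 2 counting intervals did not overlap, but whether the classes differ in their response cannot be tested with 1 library per group. These other cells mix several types, so a difference in their make-up cannot be told apart from a difference in level. Of the type I interferon list of 30 genes, 3 were measured (median log2 ratio -0.55), and the sum was 2.09 and 1.79 per 10000 (log2 ratio -0.22, -0.71 to 0.28), beside 36.8 and 50.1 in the other cells (log2 ratio 0.44, 0.43 to 0.45). With a mitochondrial limit of 5%, 1 gene of each list was left, Psmb8 with a log2 ratio of 1.37 (-0.06 to 3.01) and Ifitm3 with 0.33 (-0.97 to 1.68), so no direction was read from either list.

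Antigen presentation genes were abundant, and their summed levels differed by less than the counting error. AT2 cells are known to carry MHC class II constitutively, and Cd74, the invariant chain, was the most abundant gene of that list. Of the 10 class II genes, 6 were measured, with a median log2 ratio of 0.00 and none over 2-fold apart. Their sum was 66.5 UMIs per 10000 in saline and 66.1 in NP (log2 ratio -0.01, -0.09 to 0.07). H2-Aa stood at 10.0 and 11.3 per 10000, with a log2 ratio of 0.42 (0.14 to 0.70) under a mitochondrial limit of 5%, and H2-Ab1 at 7.33 and 7.06. Of the 22 class I genes, 15 were measured, with a median log2 ratio of 0.10, 0 over 2-fold higher and 1 over 2-fold lower (Tapbpl, 11 and 11 UMIs). Their sum was 36.7 and 37.0 per 10000 (log2 ratio 0.01, -0.10 to 0.12). In the mixed cells that the rule did not keep, the class I sum was 92.3 and 143 (log2 ratio 0.63, 0.62 to 0.63) and the class II sum 58.0 and 71.6 (log2 ratio 0.30, 0.30 to 0.31).

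Chemokine, cytokine and defence genes had log2 ratios on both sides of 0. The epithelial cytokine list had 6 of 23 genes measured (median log2 ratio 0.09, 1 over 2-fold higher, 0 lower) and the host defence list 12 of 18 (-0.03, 0 higher and 2 lower, with 6 ratios above and 6 below 0). Cxcl15, the lung-restricted chemokine lungkine, had 1771 UMIs in saline and 7278 in NP, or 71.3 and 110.5 per 10000 (log2 ratio 0.63, 0.56 to 0.71). Over single cells it ran from 14.7 through a median of 58.7 to 194 in saline and from 3.48 through 106 to 231 in NP. The medians lay apart and the ranges overlapped. Il33, an alarmin cytokine, had 30 and 143 UMIs (log2 ratio 0.85, 0.27 to 1.47) and Lcn2, the siderophore-binding lipocalin 2, 124 and 574 (log2 ratio 0.80, 0.52 to 1.10, and 0.38, 0.01 to 0.76, with a mitochondrial limit of 5%). The 3 measured cytokine genes with log2 ratios below 0 could not be given a direction. The log2 ratios of Cxcl16 (-0.46, -1.40 to 0.55) and Vegfa (-0.65, -1.34 to 0.07) had intervals that included 0. Cxcl1 stood at -0.98 (-1.80 to -0.13), but it was found in 3 saline and 4 NP cells, 1 cell held 47.8% of its saline UMIs, and without the cells over 10 leukocyte marker UMIs the log2 ratio was 0.08 (-1.04 to 1.34). Of the 12 measured NF-kB response genes of 24, the median log2 ratio was 0.41, with 1 over 2-fold higher, Cxcl2, and 1 lower, Saa3. Both rested on a single cell: 96 of the 101 NP UMIs of Cxcl2 came from a cell that also held 53 leukocyte marker UMIs, and 70 of the 71 saline UMIs of Saa3 from a cell that held 55.

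Lysozyme split the AT2-like cells in both groups. Lyz1 had pooled levels of 142 and 81.2 UMIs per 10000 (log2 ratio -0.81, -0.87 to -0.75, and -1.55 with a mitochondrial limit of 5%), but it was at or above 50 per 10000 in only 6 of 15 saline and 10 of 34 NP cells, a level chosen after the values were seen. In those cells it ran from 96.9 to 497 in saline and from 113 to 490 in NP. In the remaining cells it did not pass 20.1 in saline and 42.1 in NP. The share of high cells was 40.0% (16.3 to 67.7) and 29.4% (15.1 to 47.5), so the groups overlapped. Lyz2, its near-identical neighbour, was present in every cell, at a pooled 249 and 340 per 10000 (log2 ratio 0.45, 0.41 to 0.49), and counts of such paralogs can be affected by reads that match both.

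Among less abundant genes, those named by the size of the ratio within AT2-like cells did not rest on 1 cell, since the rule left out genes with over 25% of their UMIs in a cell. The 10 highest in NP were Sft2d2, Ang, Creb3l2, Paqr8, Nrn1, Bmp3, Lrg1, Prss8, Dpm3 and Slc6a6. Lrg1, a secreted glycoprotein of the acute phase, had 31 UMIs in 9 saline cells and 239 in 24 NP cells (log2 ratio 1.54, 1.00 to 2.13). Ang, the ribonuclease angiogenin, had 10 in 7 cells and 98 in 30 cells (log2 ratio 1.89, 0.95 to 2.99). Paqr8, a membrane progestin receptor, had 9 in 6 cells and 75 in 31 cells (log2 ratio 1.65, 0.65 to 2.84). The 10 lowest were Anxa1, Map3k20, Plekhb1, Hist1h1e, Leng8, Cap1, Pkp4, Afap1l1, R3hdm4 and Sult1a1. Anxa1, the anti-inflammatory annexin A1, had 43 UMIs in 10 saline cells and 33 in 19 NP cells (log2 ratio -1.79, -2.49 to -1.10). The other 9 had log2 ratios from -1.31 to -1.06 on 24 to 29 saline UMIs.

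Most dissociation stress genes had log2 ratios below 0. The 16 genes of the dissociation stress list were all measured, with 0 over 2-fold higher and 1 lower, and 13 of 16 below 0. Their median log2 ratio was -0.41, beside a median of -0.07 over all 4746 genes. Fos, the immediate early gene, stood at 15.3 and 9.73 UMIs per 10000 (log2 ratio -0.66, -0.84 to -0.47), and over single cells ran from 0 through 14.3 to 41.8 in saline and from 0 through 8.34 to 28.6 in NP. Atf3 was the gene past 2-fold, with 77 and 94 UMIs (log2 ratio -1.12, -1.57 to -0.67) and 39.0% of the saline UMIs in 1 cell. When cells with any Ptprc UMI were left out, the log2 ratio of Atf3 was 0.55 and the median of the list -0.01. Of the 16 genes of the transitional alveolar state, 11 were measured (median log2 ratio -0.34, 1 over 2-fold higher and 3 over 2-fold lower). In each of these 4 genes 1 cell held a large part: 80.8% of the NP UMIs of Fn1, and 63.6%, 50% and 42.1% of the saline UMIs of Tnfrsf12a, Sfn and Areg. Areg was found in 7 saline and 6 NP cells (log2 ratio -3.07, -4.14 to -2.10). With a mitochondrial limit of 5% the log2 ratio was -2.97 (-4.67 to -1.62) for Areg and -1.63 (-3.45 to -0.10) for Sfn. Without the cells over 10 leukocyte marker UMIs it was -2.03 (-3.24 to -0.85) for Areg and -1.70 (-2.82 to -0.59) for Sfn. Among the other genes of the list Nupr1, a stress-induced nuclear protein, was higher in NP, with 86 and 420 UMIs (log2 ratio 0.88, 0.54 to 1.23, but 0.15, -0.31 to 0.62, with a mitochondrial limit of 5%). Cldn4 was at 0 in both. The unfolded protein response (11 of 15 measured, median log2 ratio 0.11), antioxidant (9 of 15, 0.12) and junction lists (13 of 18, -0.13) held no gene over 2-fold apart. The club and xenobiotic list (9 of 16, -0.38) held 1 lower gene, Cyp2f2, with 18 UMIs in each library. It was found in 4 saline and 12 NP cells, and 1 cell held 50% of its saline UMIs. Of the 15 proliferation genes, 3 were measured and Mki67 and Cdk1 were at 0.

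**Figure D5:**
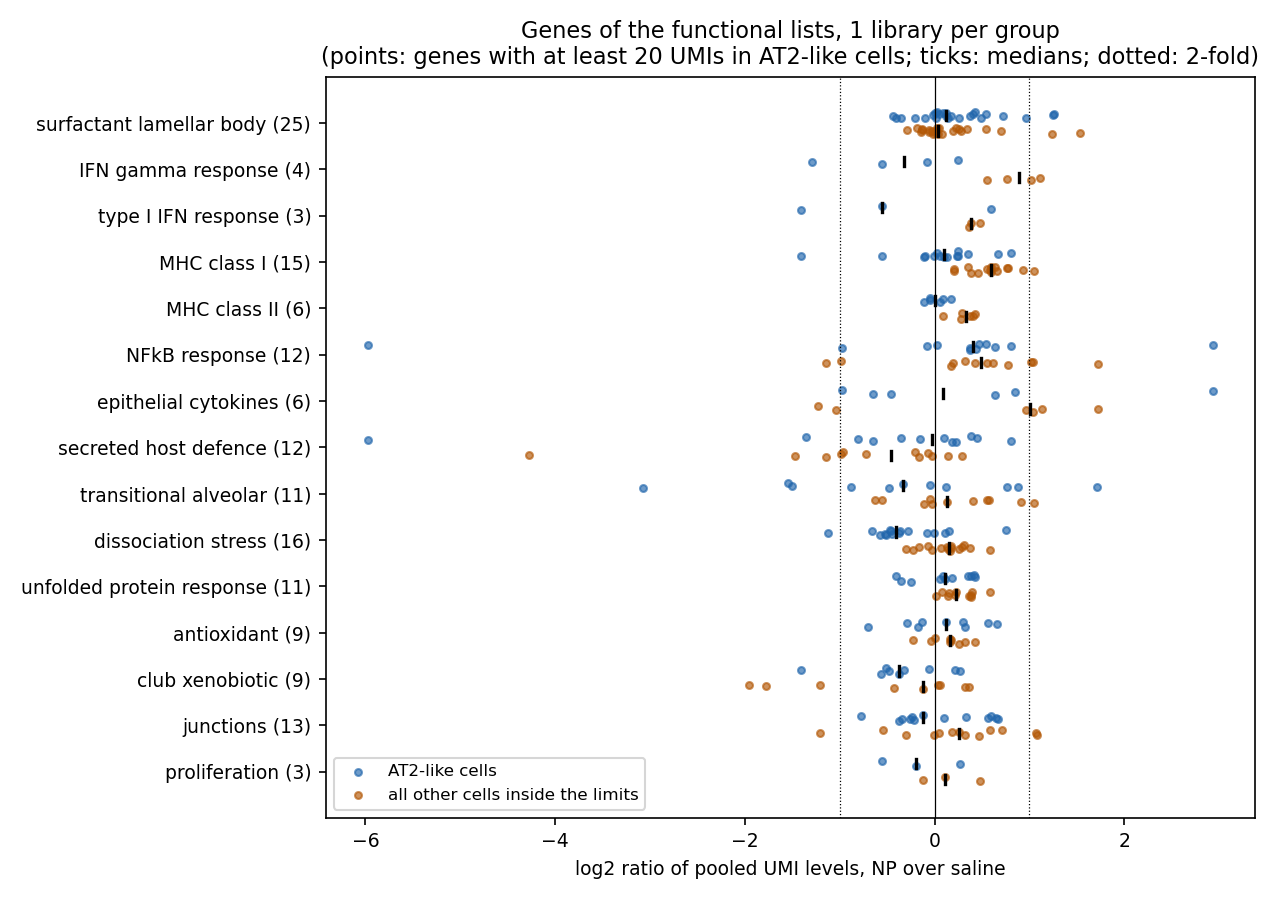
Log2 ratio of pooled levels, NP over saline, for genes of each functional list that reached 20 UMIs in AT2-like cells (number in brackets). Blue marks AT2-like cells and orange the cells inside the limits that the rule did not keep, 1 library per group. Points are genes, black ticks are medians and dotted lines mark a 2-fold difference; for the IFN gamma list the tick lies at -0.32 in AT2-like cells and at 0.89 in the other cells over the same 4 genes.

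RNA of other cell types was found in AT2-like cells, and some of it differed between the libraries. All 5 genes of the leukocyte list were detected there, with Tyrobp the most abundant, and their sum was 3.82 UMIs per 10000 in saline and 1.05 in NP (log2 ratio -1.87, -2.34 to -1.41). Of these UMIs, 90 of 95 in saline lay in 2 cells and 53 of 69 in NP in 1 cell, which left 5 and 16 for the others. The sum of the 9 neutrophil genes, led by S100a9, had a log2 ratio of -0.88, from 898 and 1294 UMIs. A single saline cell held 692 of these, and a single NP cell 1091. The neutrophil list was 20.7% of free RNA in saline and 12.3% in NP, and by the same list free RNA came to 0.446% and 0.239% of a median AT2-like cell. The 6 T and NK cell markers held 33 UMIs in saline, 32 of them in 1 cell, and 0 in NP. All 7 mesothelial, all 6 basal and all 5 neuroendocrine markers were at 0 in both groups, and the 6 endothelial markers summed to 16 and 40 UMIs. The 6 stromal markers, led by Inmt and with Dcn at 0, were higher in NP, with 14 and 78 UMIs (log2 ratio 1.07, 0.24 to 2.01), 51 of them in 1 NP cell. The part of this RNA in the differences above was not tested. Without the 2 saline and 1 NP cells that held over 10 leukocyte UMIs, the log2 ratios were 0.97 for Fabp5, 0.51 for Cxcl15, 0.68 for Lcn2, 1.57 for Lrg1 and -1.87 for Anxa1.

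Mitochondrial content was higher in the NP AT2-like cells. It ran from 0.188% through a median of 4.74% to 5.83% of UMIs in saline and from 3.11% through 5.40% to 7.10% in NP, and 3 of 15 against 22 of 34 cells lay at or above 5%. The ranges overlapped, and over all cells inside the limits the medians were 3.73% and 3.74%. The limit of 7.5% also fell unevenly: among cells that met every other condition, it removed no AT2-like cell in saline and 6 in NP. With a limit of 5%, 12 AT2-like cells were left in each library, and the log2 ratios were 0.37 for Cxcl15, 0.50 for Fabp5, 0.38 for Lcn2, 1.71 for Lrg1 and -2.005 for Anxa1.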

How the data were processed

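The data were single-cell RNA-seq of 2 lung libraries, saline and NP, each pooled from 4 mice by the labels (the methods of the study give another number). The authors deposited raw UMI counts per gene and barcode, made with Cell Ranger (6.0 in the submitters' processing notes, 4 in the matrix headers) on mm10. Gene names are those of the files, and 99.6% of identifiers were found in GENCODE for that build.

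Cells were chosen and classed as described, with 10 panels. The members and lists were chosen with earlier results of these data known. No doublet caller was run; the upper gene limit and the conditions on Cdh5, Csf1r and Cd79a remove some doublets. UMIs were pooled per class and library, ratios are NP over saline, and counts under 3 were set to 3. Intervals for ratios are exact conditional binomial 95% intervals, and those for shares Clopper-Pearson.

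The rule for named genes took the 10 highest and 10 lowest ratios among genes with at least 50 UMIs, no cell over 25% of the UMIs in the higher library, and no mitochondrial, ribosomal or selection gene, in AT2-like cells or, with under 20 of these in a library, in all kept cells, and the 3 highest and 2 lowest of each of 15 functional lists. Some of these are given as counts only. A gene among the highest is not reported here. With 1 library per group no test was made. Tables were handled with pandas 2.3.3 and numpy 2.4.6 in Python 3.11.15, intervals came from scipy 1.17.1 and plots from matplotlib 3.10.9, and the code was tested on simulated data. Alternatives changed the cell limits, the class rule, the denominators, the scaling, the weight of cells, the gene minimum, the treatment of zeros and free RNA.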

Additional observations from a re-analysis of the deposited data

How the results depend on the processing

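No paired analysis was possible because there was 1 library per group, and for the same reason no replicate could be left out. Of 173 alternative values of the main results, 156 stayed near the value given above. For shares and list medians this meant within the counting interval, which for a median was that of its middle gene or genes. The counts of genes over 2-fold apart have no interval and were held to a fixed fold of the count given. The AT2-like share of kept cells was higher in NP by 14.7 to 43.8 percentage points in every alternative run, the AT1-like share by 4.65 to 16, and the club-like share fell by 7.71 to 23.8. The interval of the difference included 0 in 2 of 10 alternatives for AT2-like cells (the mitochondrial limit of 5% and the share of the 5 lung epithelial classes), 7 for AT1-like and 9 for club-like cells. With a mitochondrial limit of 5%, which left 12 AT2-like cells in each library and 2375 genes, 76 genes were over 2-fold higher and 132 lower. That limit left 1 gene in each interferon list, with log2 ratios of 1.37 (IFN-gamma list) and 0.33 (type I list). With at least 50 UMIs a gene, 24 genes were higher and 32 lower of a smaller set. The surfactant median log2 ratio was 0.0717 with S100a8 and S100a9 under 1%, 0.15 without Ptprc-positive cells and 0.17 with equal weight per cell. It was 0.15 with surfactant and secretoglobin genes out of the total and 0.19 after centring on the median gene. Without Ptprc-positive cells (11 saline and 32 NP AT2-like cells left) the median log2 ratio was -1.39 for the type I interferon list and -0.00858 for the stress list. The log2 ratio of Atf3 was 0.55. Among alternatives chosen after seeing the data, the kept cells as a share of the library were 0.105 points higher in NP without the S100 limit, the surfactant median was 0.14 with a mitochondrial limit of 15% and 0.0437 without the cells over 10 leukocyte UMIs, and the stress median without those cells was -0.21. The causes were not tested. The minimum of 800 genes left the same 15 and 34 AT2-like cells, so values for these cells could not move there. At least 5 UMIs of the 4 genes and at least 3 of the 4 genes each left 15 and 33. Their main results within these cells were equal. The tally of 173 and the one that follows hold these runs. Of 1476 alternative values for named genes, 1402 stayed within their error, 73 moved beyond it and that of Atf3 passed from over 2-fold lower to above 0. Among those that moved from a value whose interval excluded 0, Scd1, Ctsh, Sftpd and Atp8a1 changed sign with the mitochondrial limit of 5% and Cxcl1 without the cells over 10 leukocyte UMIs, and of these signs that of Scd1 had an interval that excluded 0. With 15 saline AT2-like cells, genes of under 20 UMIs could not be compared.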

Other observations

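In AT2-like cells, 122 of the 416 genes over 2-fold apart had over 25% of the UMIs of the higher library in 1 cell, and so did 20 of the 56 with at least 50 UMIs. Il1b, an inflammatory cytokine, had 116 UMIs in saline and 78 in NP, with 92.2% of the saline UMIs in 1 cell, and Cd14, a lipopolysaccharide co-receptor, had 28 and 29, with 92.9% of the saline ones in 1 cell. Mfap4, a gene of matrix fibrils, had 10 and 99 UMIs, with 89.9% of the NP ones in 1 cell. Scd1 levels ran from 0 through a median of 13.4 to 45.3 UMIs per 10000 in saline AT2-like cells and from 2.98 through 12.6 to 235 in NP ones.

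Lyz2 differed between AT2-like cells with Lyz1 above and below 50 UMIs per 10000 in another order in each library. Its median was 226 UMIs per 10000 in Lyz1-high and 194 in Lyz1-low saline cells, and 171 in Lyz1-high and 370 in Lyz1-low NP cells. With 6 and 10 Lyz1-high cells from 1 library each, these values are descriptions.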
